A study of Homo sapiens with 6 samples.

Results

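The hepatoma-derived growth factor (HDGF) family was examined in 2 deposited lists of RNA regions enriched for N1-methylguanosine (m1G) in PANC-1, a human cell line established from pancreatic ductal adenocarcinoma. Its members were the 4 genes HDGF, HDGFL2, HDGFL3 and PSIP1, taken by name. A region belonged to a gene when a MeTDiff peak lay inside its GRCh38 span on its strand, or when a MACS2 summit lay inside that span. This gave 4 MeTDiff peaks of 18431 and 3 MACS2 summits of 6264, which is 7 of 24695 regions. The family was chosen by the fold of the HDGF peak, already known to be the largest, so places, folds and scores of the members are a description and were not tested.

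Cells were transfected with control siRNA (labelled WT control) or with siRNA against TRMT5, a tRNA guanosine methyltransferase, whose depletion lasted 4 days. Fragmented polyA+ RNA was precipitated with an anti-m1G antibody and sequenced beside its input, and each of these 2 conditions had 1 input and 2 precipitate libraries. The 6 libraries share 1 batch label, and the labels do not say whether paired precipitates came from separate cultures. Neither list marks a condition or a library, so no value below has a replicate error, no sequencing depth is known, and control and depleted cells were not compared here. TRMT5 levels were not analysed either, so the depletion was not checked. Of 4 ductal keratin genes, 3 carried a peak and a summit (KRT8, KRT18 and KRT19), whereas KRT7 carried neither. Of 10 markers of acinar, endocrine, leukocyte, endothelial and fibroblast cells, 1 did, the collagen gene COL1A1, with 9 peaks and 1 summit. A peak and a summit were carried by 17.2% of 15842 protein-coding genes with a known strand. The lists record enrichment and not expression, so cell identity was not read from these counts.

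Proteins of this family share an N-terminal PWWP domain, which binds DNA and methylated tails of histone H3. HDGF is a heparin-binding protein that is both nuclear and secreted and acts as a mitogen. PSIP1, also called LEDGF, tethers partner proteins such as menin and the methyltransferase KMT2A to transcribed chromatin, and HDGFL2 is a related chromatin reader that also has an integrase-binding domain. HDGFL3 is best known from neurons, and HDGFL1, a further paralog outside the list, is encoded by a gene without introns. N1-methylguanosine is best known from tRNA, where TRMT5 places it next to the anticodon.

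The 2 members with a peak at an annotated transcript start are shown first, beside the matching stretch of the 2 members without one there. Each line gives 30 transcribed bases read from RefSeq start windows (GRCh38.p14), which hold the 250 bp before and the 50 bp from each annotated start, and all 4 genes matched by symbol. The lines end at the last base of the window, and capitals mark bases inside a MeTDiff peak. Without transcript models, exons and untranslated regions were not assigned.
HDGF: agcgcgcacccACCGCGCCGGAGCCTTGCC
PSIP1: ggcagCGGCGGCGCGGTTGCGATTCCGAGC
HDGFL2: ccgctttccgcggcctgggcctctcgccgt
HDGFL3: cgcgaggcccggcgctcgcgccgcgcccgg
The HDGF line is chr1:156751626-156751655 on the minus strand, with 19 bases in the peak. The PSIP1 line is chr9:15510921-15510950 on the minus strand, with 25 bases in the peak. The HDGFL2 line is chr19:4472317-4472346 on the plus strand and the HDGFL3 line chr15:83207774-83207803 on the minus strand, and neither touched a peak.

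HDGF held 1 MeTDiff peak, at chr1:156751445-156751644 on the minus strand, and its fold enrichment of precipitate over input was 73.9. This was the largest of the whole list, whose median was 4.24. Just below it were TRNP1 with 68.0 and SMAD3, a signal transducer downstream of TGF-beta receptors, with 66.0. The peak was 1 unspliced block of 200 bp, where the median peak of the list covered 150 bp. Its false discovery rate (FDR) was 0.00295, and 66.5% of all peaks had a smaller one. The peak thus stood first by fold and in the lower part of the list by FDR. The same deposited p-value of 0.0013 was carried by 319 peaks, with folds from 1.07 to 73.9 and a median of 4.07, and 1 of the HDGFL2 peaks was among them. Of the 10 largest folds, 6 had a smaller FDR than HDGF, and the FDR of the 10 ranged from 7.08e-05 to 0.00912.

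**Figure D1:**
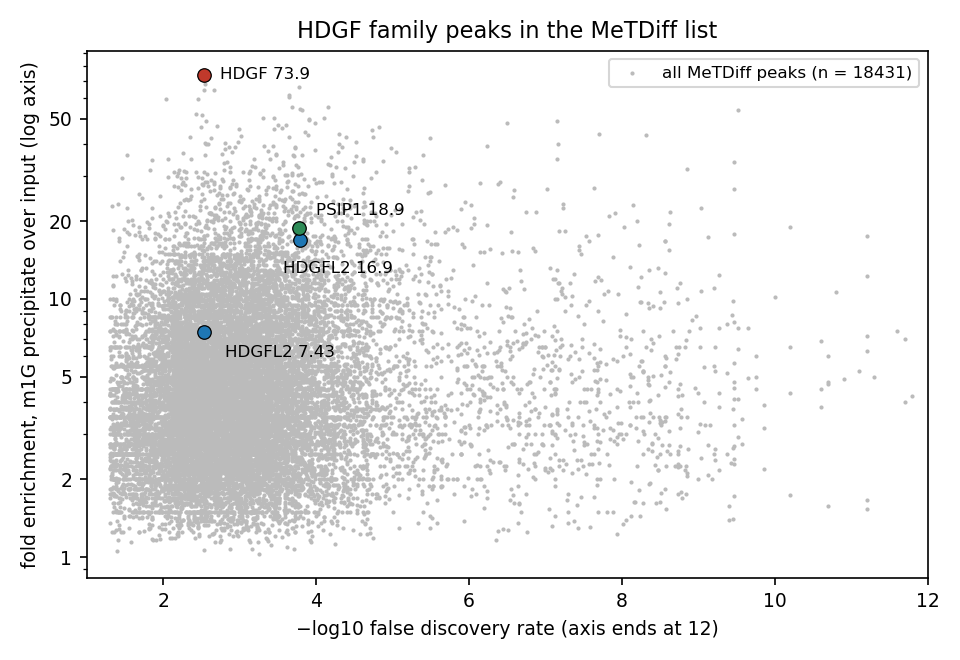
Fold enrichment (log axis) against −log10 FDR for every MeTDiff peak (grey) and the 4 peaks of the HDGF family (colours, with fold); the axis ends at 12, beyond which 22 peaks lie. HDGF at 73.9 is the highest point, at an FDR of 0.00295, while PSIP1 at 18.9 and HDGFL2 at 16.9 lie close to each other.

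The HDGF peak began 31 bp and ended 230 bp downstream of an annotated transcript start at 156751675. HDGF has 4 annotated starts in the window table, at 156752448, 156752232, 156751675 and 156751293, and the peak lay between the last pair. Measured along the whole gene span (chr1:156742107-156767366, 25260 bp), the same peak sat at 62.6% from the 5′ end, 15821.5 bp inside it, because the span reaches far upstream of these starts. The far 5′ end of the span held no HDGF peak. Its neighbour there, PRCC, starts 168 bp beyond the span on the opposite strand and had 4 peaks of its own, with folds from 3.88 to 12.4. A summit of score 17.2 at 156767645, beyond the HDGF span, lay inside 1 of those PRCC peaks and was not counted for HDGF. At the 3′ end, MRPL24 overlaps HDGF by 610 bp on the same strand. MRPL24 had 1 peak, with a fold of 5.45, and 1 summit, both outside the HDGF span.

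The single MACS2 summit of HDGF, at 156751638 with a score of 46.3, lay inside that peak, 37 bp downstream of the same start. The score is as the authors deposited it, on a −log10 scale, and whether it stems from p or q was not stated. It ranked 331 of 6264 summits, above 94.7% of them, and the list median was 16.4. The HDGF region thus ranked 1 in the MeTDiff list and 331 in the MACS2 list. Which libraries made each list was not stated, so their overlap was not taken as independent evidence.

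The peak stopped 15 bases short of the inferred HDGF start codon. The codon was inferred at 156751429 as the longest open frame in the window around the start at 156751293. It lies upstream of that start, and without transcript models it was not tied to a transcript. The first bases of the coding sequence read from it are shown with those of the paralog HDGFL1 to mark where the peak ends. Capitals mark the start codon and the longest run that both stretches share, 9 bases, at base 35 of the HDGF and base 32 of the HDGFL1 coding sequence.
HDGF: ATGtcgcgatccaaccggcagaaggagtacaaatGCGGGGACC
HDGFL1: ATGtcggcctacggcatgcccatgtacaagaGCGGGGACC
The HDGF stretch is chr1:156751387-156751429 on the minus strand and the HDGFL1 stretch chr6:22569576-22569615 on the plus strand. Read in this frame, the region encodes the N-terminal end of the protein, the end that carries the PWWP domain. No peak and no summit lay in it in either gene. HDGFL1 (chr6:22569566-22571666) had 0 peaks and 0 summits over its whole span.

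PSIP1 carried 1 MeTDiff peak, with a fold of 18.9 and an FDR of 0.000166. Its fold ranked 513 of 18431 peaks, above 97.2% of them, and 19.1% of all peaks had a smaller FDR. The peak spanned chr9:15510308-15510945 on the minus strand and joined 2 blocks, one of 129 bp (15510817 to 15510945) and one of 22 bp (15510308 to 15510329), across a gap of 487 bp. In the list as a whole, 33.1% of peaks had more than 1 block. The longer block began 25 bp downstream of the 5′-most annotated start at 15510970. A further annotated start, at 15510358, lay inside the gap, and the shorter block began 29 bp downstream of it. By distance to any annotated start, PSIP1 was thus the member whose peak lay in the same part as that of HDGF. That measure was chosen after seeing the data. Along the gene spans the places differed, at 0.732% in PSIP1 and 62.6% in HDGF.

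No MACS2 summit lay inside the PSIP1 span (chr9:15464066-15510970). The nearest was at 15510999, 29 bp upstream of the 5′-most start and 54 bp from the longer block, with a score of 35.7, above 88.3% of all summits. Summits carry no strand, and the nearest MeTDiff peak to this one on any gene was that of PSIP1. Counted by the span alone, PSIP1 had a MeTDiff peak and no summit. SNAPC3, which overlaps the 3′ end of PSIP1 by 2670 bp on the opposite strand, had 1 peak and 1 summit of its own, both outside the PSIP1 span.

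**Figure D2:**
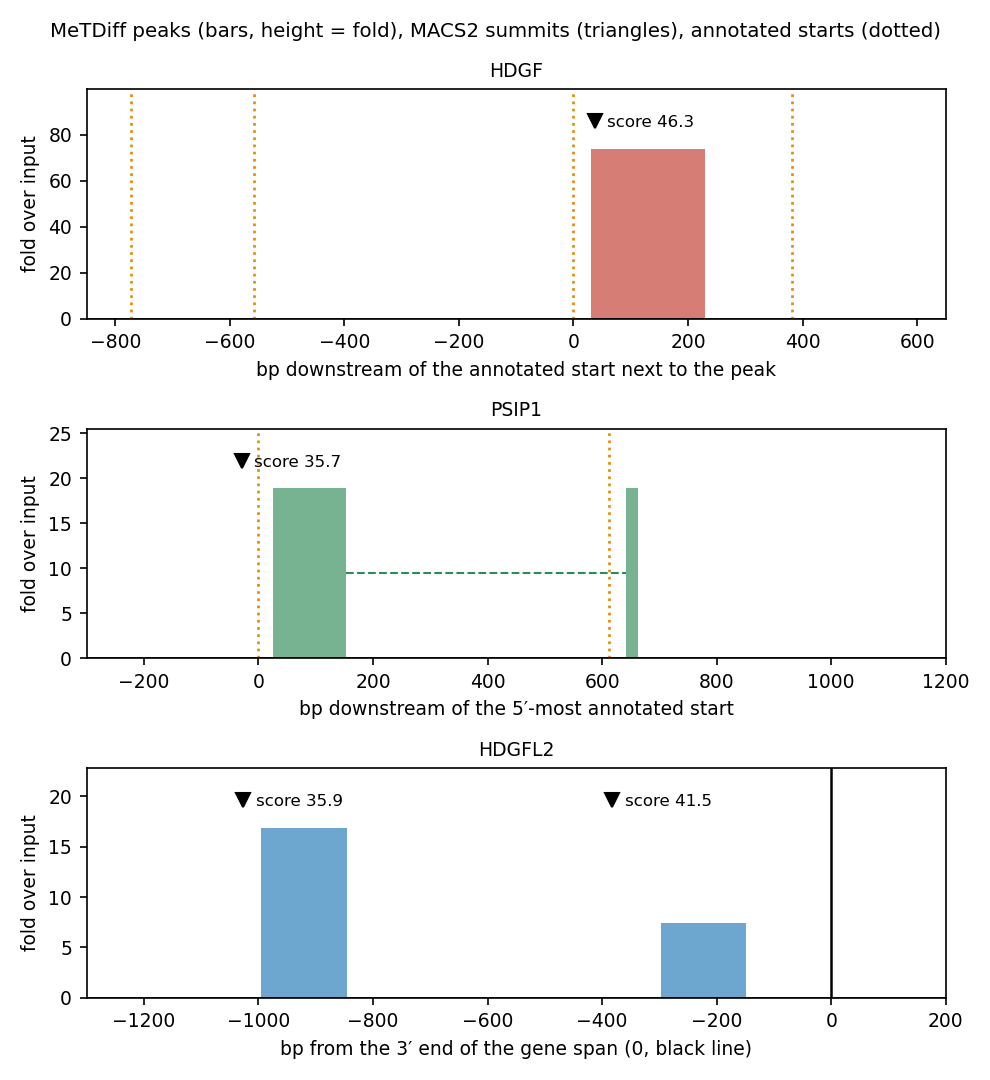
MeTDiff peaks (bars, height is the fold over input) and MACS2 summits (triangles, with score) by distance in bp from an annotated start of HDGF and PSIP1 and from the 3′ end of HDGFL2; dotted lines are annotated starts, and the dashed line joins the blocks of the spliced PSIP1 peak. The HDGF and PSIP1 peaks begin 31 and 25 bp behind a start, and both HDGFL2 peaks lie in the last 1000 bp of the gene.

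HDGFL2 differed in place. It had 2 MeTDiff peaks, both single blocks of 151 bp on the plus strand and both in the last 1000 bp of the gene span (chr19:4472297-4502207). The first, at chr19:4501211-4501361, had a fold of 16.9 and an FDR of 0.000162, and it ended 846 bp before the end of the span. The second, at chr19:4501909-4502059, had a fold of 7.43 and an FDR of 0.00295, and it ended 148 bp before the end. The stronger peak ranked 681 and the weaker one 4129 of 18431 peaks by fold. At its 2 annotated starts, where HDGF and PSIP1 carried theirs, HDGFL2 had no peak.

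The 2 summits of HDGFL2, at 4501180 with a score of 35.9 and at 4501825 with a score of 41.5, lay outside the blocks of its peaks. The former was 31 bp and the latter 84 bp upstream of the nearer peak. The higher score accompanied the peak of lower fold. PLIN4, on the opposite strand, overlaps the last 16 bp of the HDGFL2 span and had 0 peaks and 0 summits, so these regions were not shared with a called neighbour.

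HDGFL3 had 0 peaks and 0 summits in its span (chr15:83112738-83207823, 95086 bp), the longest of the family. Its opposite-strand neighbour TM6SF1, which overlaps it by 24671 bp, had 0 as well. Input counts were not available here, so a transcript that was hardly present and one without enriched fragments cannot be told apart.

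**Figure D3:**
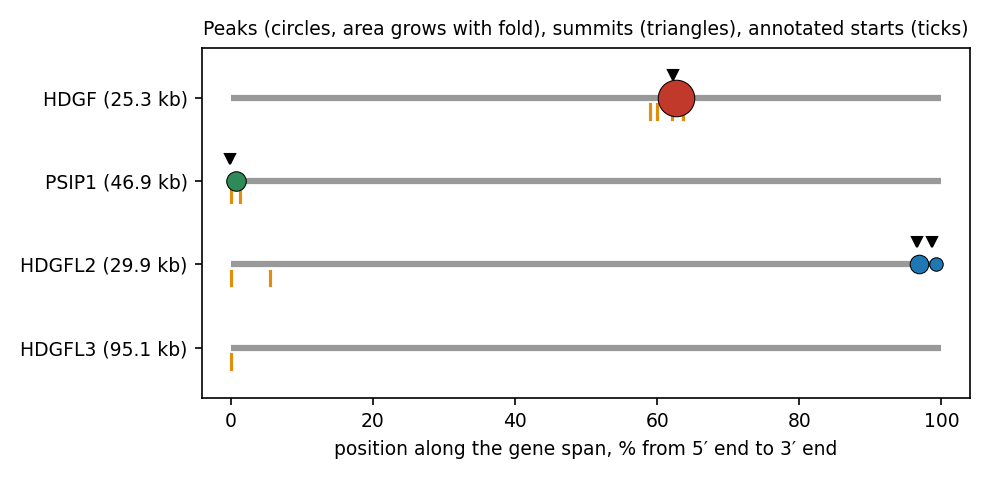
Place of MeTDiff peaks (circles, area grows with fold), MACS2 summits (triangles) and annotated starts (ticks) along each gene span, in % from the 5′ end to the 3′ end. The HDGF peak lies at 62.6% of its span, beside its annotated starts, that of PSIP1 at 0.732% and those of HDGFL2 at 96.9% and 99.3%, and HDGFL3 has none.

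Against other genes, the family was counted as follows. Of the 4 members, 3 had a MeTDiff peak, where 38.2% of 15842 protein-coding genes with a known strand did (95% Wilson interval 37.4 to 38.9). A summit was present in 2 of the 4, HDGF and HDGFL2, where 18.5% of genes had one (interval 17.9 to 19.1), and these 2 had both, as 17.2% of genes did. A peak with its midpoint within 500 bp of an annotated start was present in 2 of the 4, where 14.8% of genes had one. A peak within 500 bp of the 3′ end of the span was present in 1 of the 4, HDGFL2, where 5.45% of genes had one. Since HDGF was in the list because of its peak, nothing is read from these counts. Intervals cover counting error only.

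The largest fold of each gene gives the order HDGF, PSIP1, HDGFL2. HDGF ranked 1, PSIP1 336 and HDGFL2 455 of 6047 protein-coding genes with a peak, whose median largest fold was 5.95. By highest score, HDGF ranked 226 and HDGFL2 316 of 2935 genes with a summit, whose median was 18.9. The values 18.9 for PSIP1 and 16.9 for HDGFL2 have no error, so their order is not settled. Peaks were also ranked within their class of place. Among 2564 peaks within 500 bp of an annotated start, with a median fold of 5.42, HDGF ranked 1 and PSIP1 139. Among 929 peaks within 500 bp of a 3′ end, with a median of 3.64, the weaker HDGFL2 peak ranked 170, while its stronger peak fell in neither class.

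**Figure D4:**
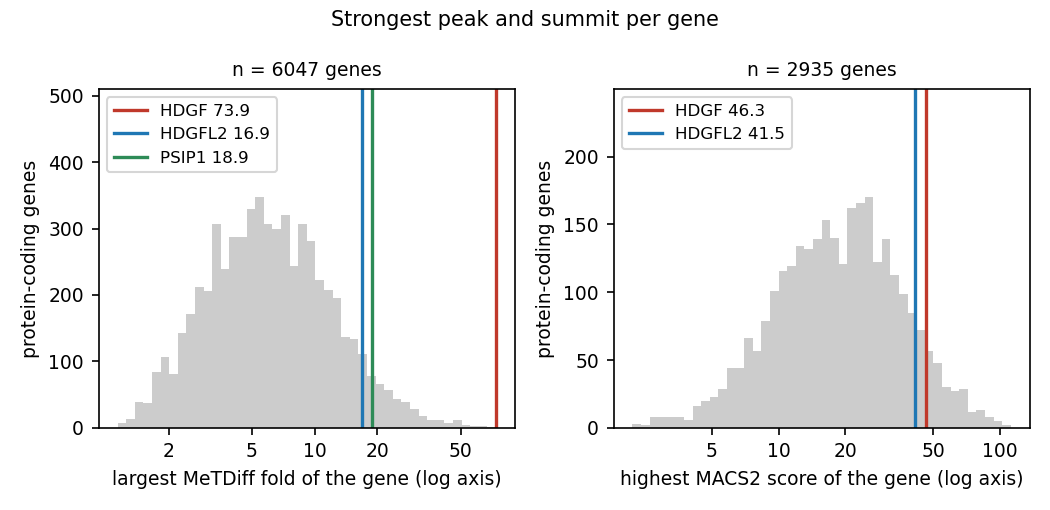
Number of protein-coding genes by their largest MeTDiff fold (left, 6047 genes) and highest MACS2 score (right, 2935 genes), both on log axes, with family members as lines. HDGF lies at the far end of the fold distribution and, with HDGFL2, in the upper tail of the score distribution.

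The peak bases of HDGF and PSIP1 that could be read were both rich in G and C. The start windows held 118 of the 200 peak bases of HDGF and 46 of the 151 of PSIP1. Of the HDGF bases, 19 came from the window of the start next to the peak. The others came from the upstream part of the window of the start at 156751293. G and C made up 83.9% of these bases in HDGF and 80.4% in PSIP1, where the median over 574 peaks with at least 40 such bases was 71.7%. The HDGF value was above 95.3% and the PSIP1 value above 89.2% of those peaks. For G alone, the base that m1G modifies, HDGF with 43.2% and PSIP1 with 43.5% lay closer to the median of 41.0%. Across the 574 peaks, the median G and C content was 68.0% in the 144 of lowest fold (1.24 to 3.88) and 75.3% in the 144 of highest fold (9.37 to 73.9). HDGFL2 and HDGFL3, without a peak at the start, had 76.0% G and C in the 50 bp from their 5′-most starts, the same as PSIP1, whereas HDGF had 66.0% at the start next to its peak. The median of these 50 bp over 22198 annotated starts was 64.0%. They are a different stretch from the peak bases, so the values are not to be set against those of the peaks. The part of base composition in the folds was not tested.

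**Figure D5:**
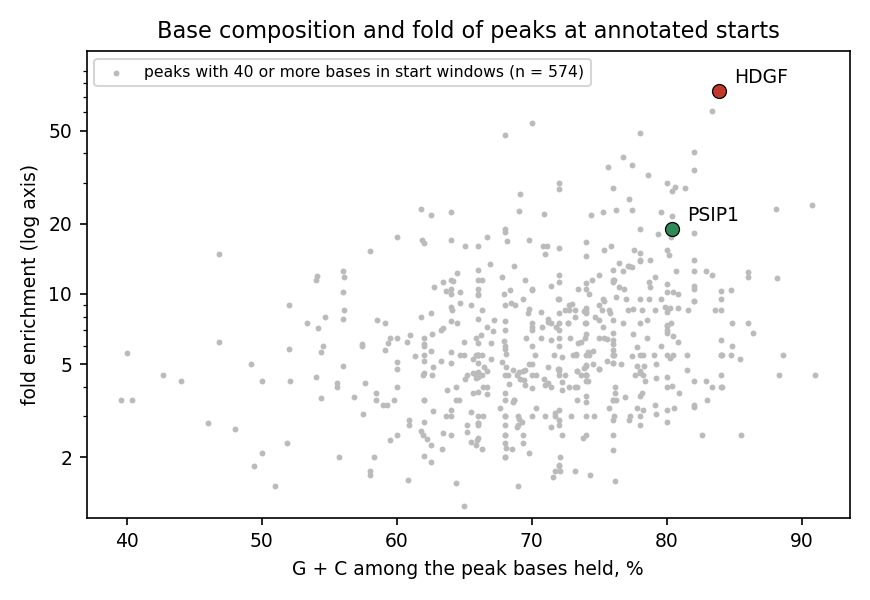
G and C content, in %, of the peak bases held by start windows against fold (log axis) for 574 MeTDiff peaks (grey), with HDGF (83.9%, fold 73.9) and PSIP1 (80.4%, fold 18.9) in colour. Both members lie on the G and C rich side of the cloud.

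By pattern, the genes most like HDGF were WSB2, TOM1 and SAMD1. Likeness was the distance over 3 measures, log2 of the largest fold, log2 of the highest score and the relative place of the strongest peak along the span, among 2727 genes with a peak and a summit, and it uses no samples. WSB2 had a fold of 61.5 and a score of 53.5, TOM1 59.6 and 58.8, and SAMD1 55.5 and 43.4. The strongest peak of TOM1 sat at 60.7% of its span, near the 62.6% of HDGF, but those of WSB2 and SAMD1 sat at 33.8% and 29.3%. No distance to an annotated start entered the likeness, and the HDGF fold in it was the value the family was chosen by. Distances ran from 0.444 to 0.539, where those of the genes nearest to HDGFL2 ran from 0.0979 to 0.152. For HDGFL2 they were BAHCC1, with a fold of 17.1, CLTB, a clathrin light chain gene, with 15.9, and SEC61A1, a translocon subunit gene, with 18.4. The strongest peak sat at 87.4% of the span in BAHCC1 and at 98.5% or beyond in CLTB and SEC61A1.

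Other genes with a PWWP domain were listed separately. Of 20, 17 were among the genes with a known strand, and 11 of these had a MeTDiff peak (64.7%, beside 38.2% of all genes) and 6 a summit (35.3%, beside 18.5%). Their median largest fold was 6.0, close to the 5.95 of all genes with a peak. The largest was in NSD2, a histone methyltransferase gene, with 6 peaks, a largest fold of 27.5 and a highest score of 27.4. BRPF3 followed with 11.8, then BRD1 with 8.90 and BRPF1 with 8.83, which are scaffold genes of histone acetyltransferase complexes. The BRPF1 peak, at chr3:9731879-9731979, had its midpoint 194 bp from an annotated start, and the only BRPF1 summit, with a score of 25.3, lay outside it. In all, 4 of the 17 had a peak within 500 bp of a start, beside 14.8% of all genes. The list was chosen with earlier results of these data known, and expression was not taken into account. Nothing is therefore read from these shares.

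Genes whose products bind PSIP1, HDGF or HDGFL2 or act beside them formed a further list. Of 10, 5 had a MeTDiff peak and 2 a summit, beside 38.2% and 18.5% of all genes, with a median largest fold of 5.67. As this list was also chosen with earlier results known, nothing is read from its shares. KMT2A had 7 peaks, the strongest of 17.5-fold at chr11:118436540-118436740, its midpoint 148 bp from an annotated start. The only KMT2A summit, with a score of 29.8, lay outside that peak. Menin (MEN1), which joins KMT2A to PSIP1, had 4 peaks with a largest fold of 11.4 and 3 summits, the highest with a score of 35.7. The Mediator subunit MED1 had 5.67 and the remodelling ATPase SMARCA4 4.50. Nucleolin (NCL), described as a cell surface receptor of HDGF, had 0 peaks and 0 summits.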

How the data were processed

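Only the 2 deposited peak lists were used. The submitters' processing notes name STAR 2.7.1, MACS2 2.2.5, SAMtools, Picard, bedtools, featureCounts, ChIPseeker, edgeR and DESeq2, and GRCh38 as build. What each tool did, its settings and any pooling of libraries are not stated in the sources used. The deposited MACS2 score is a −log10 value, of p or of q. The deposited MeTDiff columns, read from their order and values, are a p-value, the log10 of the FDR, and a fold, the ratio of precipitate to input.

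Gene spans, starts and strands came from RefSeq tables of GRCh38.p14; 4214 of 20056 protein-coding genes had no strand there and were left out of own-strand counts. Positions are 1-based. Python 3.11.15 with pandas 2.3.3 was used, and placement was checked on simulated data. Members, related gene lists and naming rules (strongest peaks and summits per list, nearest genes by pattern) were chosen with earlier results of these data known. NCL was named after its values were seen. The limit of 40 bases for composition was set after seeing the data.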

Additional observations from a re-analysis of the deposited data

How the results depend on the processing

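Of 58 alternative values for the counts, places and ranks of the members, 51 stayed within 1.5 times the reported value and 7 moved. Some of the 51 could not move, so this count does not measure robustness. Every member peak had an FDR of at most 0.00295, and every summit inside a member span scored at least 35.9. A cut at 0.01 or at the list median score of 16.4 therefore removed none. The HDGF rank of 1 was what the family was chosen by. Requiring an FDR of at most 0.01, either strand or any overlap changed no peak count of a member. Allowing 100 bp around a block brought the HDGFL2 summits at a peak from 0 to 2. With spans widened by 100 bp, chosen after seeing the data, HDGFL2 again had 2, and PSIP1 gained 1 summit, with 1 within 100 bp of its peak. By span ends, HDGF had 0 peaks within 500 bp of the 5′ end and by any annotated start, also chosen later, 1. PSIP1 had 1 within 500 bp and 0 within 250 bp, and HDGFL2 had 1 within 500 bp of the 3′ end and 2 within 1000 bp. With genes that have a peak or summit as background, the share with a MeTDiff peak was 96.7% in place of 38.2%, and with a summit 46.9% in place of 18.5%. No paired analysis was possible because the lists carry no samples. Depth limits are unknown, since no read counts were available here.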

Other observations

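In 3 of the 4 family peaks the nearest summit lay upstream of the peak and in HDGF it lay near the 5′ edge inside it. Over the list, 5830 of 18431 MeTDiff peaks had a summit within 300 bp of a block. The nearest summit was inside a block in 39.1%, beyond the 5′ edge in 35.5% (95% Wilson interval 34.3 to 36.7) and beyond the 3′ edge in 8.64% (interval 7.95 to 9.39), with the rest in gaps between blocks. It was alike on both strands, with 35.7% beyond the 5′ edge on the plus and 35.3% on the minus strand. Around annotated starts, 1779 summits lay within 500 bp. Of these, 71.2% lay on or downstream of the nearest start, as in HDGF, and 16.4% lay 1 to 50 bp upstream of it, as in PSIP1, with a median of 57 bp downstream. The HDGF score was above 92.4% of these 1779. This count was made after the family's summits had been seen, and its cause was not tested.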
